A study of Mus musculus with 12 samples.

Results

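The genes described here code for 8 costimulatory and adhesion receptors of the T cell surface, namely Cd28, Icos, Slamf1, Slamf6, Cd44, Cd82, Icam1 and Cd5. They were taken by name, and the estimated counts and TPM (an abundance scaled for transcript length and for depth) of their transcripts were summed per gene. All 8 were among the 14398 genes that passed the filter on low counts, of 45321 genes with a sum. RNA was sequenced by SMART-seq, which amplifies full-length cDNA, in 12 libraries of total splenic CD4+ T cells from C57BL/6 mice, enriched without labelling the CD4+ cells themselves. Each library had a pre-treatment of 1 h with ethanol, the vehicle, or with 1 µM of CsA (cyclosporin A). The unstimulated groups, ethanol_US and CsA_US, had nothing added after that, and ethanol_PI and CsA_PI had 10 nM PMA plus 1 µM ionomycin for 2 h. Each group had 3 libraries of 10523816 to 18468044 estimated counts. The labels do not tie the replicates to separate animals, so what the p-values weigh is the scatter of these libraries, and that scatter may be technical.

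CD28 and ICOS are receptors of one family that add a second signal to that of the T cell receptor through phosphoinositide 3-kinase, and CD28 is present on resting cells while ICOS is known as an activation-induced receptor. SLAMF1 and SLAMF6 bind copies of themselves on the next cell and signal through the adaptor SAP, CD44 binds hyaluronan, ICAM1 binds the integrin LFA-1, CD82 is a tetraspanin that organises membrane proteins, and CD5 dampens T cell receptor signalling. PMA activates protein kinase C and ionomycin lets calcium in, while CsA with cyclophilin blocks calcineurin, the calcium-dependent phosphatase that releases NFAT transcription factors to the nucleus.

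The 8 genes lie on 4 chromosomes of mm10. Cd28 (chr1:60716800-60773359) and Icos (chr1:60977927-61000320) are 205 kb apart with Ctla4 between them, and Slamf1 (chr1:171767127-171801184) and Slamf6 (chr1:171917515-171953170) are 116 kb apart with Cd84 and Gm10521 between them. Cd44 (chr2:102811141-102901665) and Cd82 (chr2:93419111-93463140) are both on the minus strand of chromosome 2. Icam1 lies at chr9:21015985-21028817 and Cd5 at chr19:10717116-10739002 on the minus strand.

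Upstream sequence is shown for Slamf1, Icam1 and Cd44, chosen after their values were seen because they moved differently with stimulation and CsA and because their windows hold the letters that NFAT factors recognise. The windows, from RefSeq on GRCm38.p6, run from -250 to -31 relative to the annotated start, and capitals mark GGAAA or its reverse complement TTTCC, the NFAT core. Slamf1 is chr1:171766882-171767101 (plus strand), Icam1 is chr9:21015690-21015909 (plus strand) and Cd44 is chr2:102901696-102901915 (minus strand).
Slamf1: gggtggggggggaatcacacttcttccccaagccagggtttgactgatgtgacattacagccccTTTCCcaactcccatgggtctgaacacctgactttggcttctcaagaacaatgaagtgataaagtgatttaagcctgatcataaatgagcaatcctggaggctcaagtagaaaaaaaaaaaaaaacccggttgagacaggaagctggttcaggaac
Icam1: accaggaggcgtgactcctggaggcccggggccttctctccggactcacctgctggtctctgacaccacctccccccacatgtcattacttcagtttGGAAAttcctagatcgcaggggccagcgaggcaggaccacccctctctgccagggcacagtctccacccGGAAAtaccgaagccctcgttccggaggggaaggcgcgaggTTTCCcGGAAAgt
Cd44: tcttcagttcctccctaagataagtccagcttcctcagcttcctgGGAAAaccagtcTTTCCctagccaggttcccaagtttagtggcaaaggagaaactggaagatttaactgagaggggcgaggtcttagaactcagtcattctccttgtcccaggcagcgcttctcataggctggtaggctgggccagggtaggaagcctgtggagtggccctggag
The core began at -186 in Slamf1, at -153, -84, -43 and -37 in Icam1, and at -205 and -193 in Cd44, counted from the start on the gene's strand. Of 32851 promoter windows of this length, 51.3% held the core on either strand. The AP-1 letters TGANTCA were in 6.12% of windows and the kappaB letters GGGRNNYYCC in 6.34% (N any base, R A or G, Y C or T). Neither run of letters was in any of the 9 windows matched to 6 of the 8 members. Looser forms of these motifs and the motifs of other factors were not searched, so such sites may be present, also where capitals stand. Of those 9 windows, 4 held the NFAT core. Cd28 and Icos had no entry in the table used. A match is a run of letters and not a measured binding site.

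The library labelled CsA_PI 2 stood apart and is given apart below. For 4 of the 8 members (Cd28, Icos, Slamf6 and Cd82) its level lay inside the range of the 6 unstimulated libraries, and for Slamf1, Cd44, Icam1 and Cd5 it lay just above that range. Across the 8 members it was close to the vehicle library ethanol_US 2. In CsA_PI 2 Cd28, Icos, Slamf1 and Slamf6 stood at 314, 244, 63 and 131 CPM, and in ethanol_US 2 at 307, 243, 60.2 and 123 CPM. Cd44, Cd82, Icam1 and Cd5 stood at 108, 311, 273 and 288 CPM, and at 104, 290, 268 and 280 CPM. In CsA_US Slamf1 was at 23.8 to 33.9 CPM. Why CsA_PI 2 had these levels was not tested. CsA_PI 1 and 3 were both outside the unstimulated range for 7 members, all but Slamf1. These counts cover the 8 members only, and the same was not counted over all genes. Markers of T cells summed to 2289 to 4444 CPM (counts relative to the TMM-scaled library size) in the 12 libraries. The 6 B cell markers summed to 447 to 959 CPM in the 4 libraries numbered 2 and to 75.3 to 160 CPM in the other 8, and the 7 myeloid and dendritic markers to 208 to 259 and 69.7 to 106 CPM. CD8 T and NK cell markers summed to 84.3 to 182 CPM. Those of red cells and platelets summed to 6.9 to 26.9 CPM in the libraries numbered 3 and to 61 to 91.6 CPM in the others. No marker was at 0 in every library. Results are therefore given again without CsA_PI 2, and in places for the 8 libraries numbered 1 and 3 alone.

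**Figure D1:**
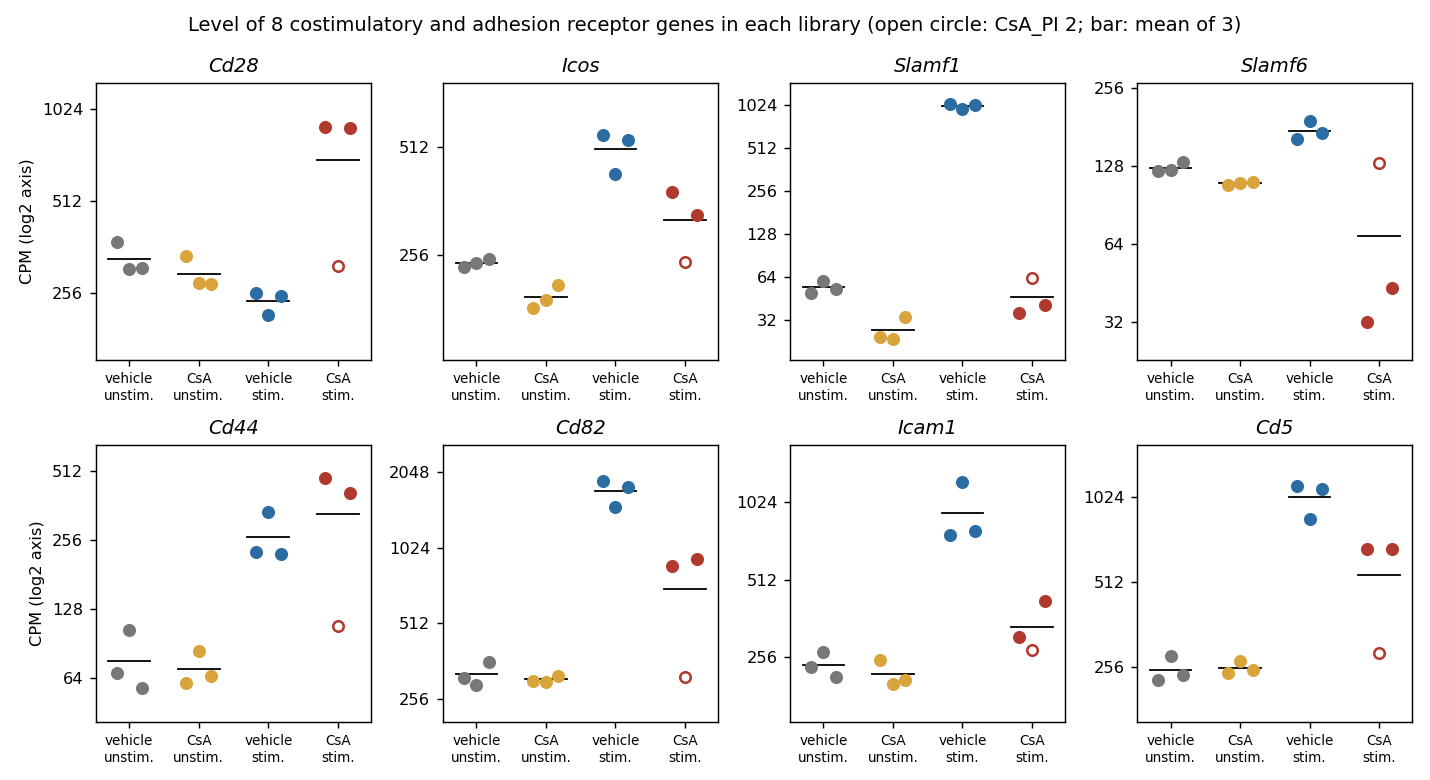
Level of each gene in CPM (log2 axis) in the 12 libraries, by group; each circle is a library, the bar is the mean of 3, and the open circle is CsA_PI 2. Slamf1 stood at 962 to 1046 CPM in the stimulated vehicle libraries and at 23.8 to 63.0 CPM in the other 9, while Cd28 was highest in CsA_PI 1 and 3, at 895 and 893 CPM.

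Stimulation of vehicle-treated cells raised 6 of the 8 receptor genes and lowered none by the test. Slamf1 rose 18.5-fold, Cd82 5.39-fold, Cd5 4.09-fold, Icam1 3.87-fold, Cd44 3.45-fold and Icos 2.09-fold, while Cd28 and Slamf6 were not called. Of all genes tested, 20.1% were called higher and 19.7% lower, 39.8% in all (20.8%, 22.9% and 43.7% without CsA_PI 2, when 7 members were higher and 1 was lower), at an adjusted p under 0.05 in edgeR's quasi-likelihood test. The median log2 fold change was 1.87 over the 8 members and -0.02 over all genes (1.81 and -0.08 without CsA_PI 2). In bulk RNA a change in the share of cells that express a gene and a change per cell cannot be told apart. The 6 rises kept their call under all 21 alternative settings.

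Of the SLAM receptors, Slamf1 stood at 49.9, 60.2 and 53.2 CPM in ethanol_US 1 to 3 and at 1046, 962 and 1020 CPM in ethanol_PI. The lowest stimulated library was far above the highest unstimulated one, and the log2 fold change was 4.21 ± 0.25 (SE; edgeR adjusted p 1.11e-06). Slamf6, its neighbour on chromosome 1, stood at 122, 123 and 133 CPM unstimulated and at 162, 191 and 171 CPM stimulated. These groups did not overlap either, yet the difference of 0.47 ± 0.39 on the log2 scale missed the threshold (edgeR adjusted p 0.37). Without CsA_PI 2 Slamf6 was called higher (0.41 ± 0.13, edgeR adjusted p 0.0208). The groups of a fit share 1 estimate of the spread, and Slamf6 stood at 32.2, 131 and 43.4 CPM in CsA_PI 1 to 3. Over all genes the common coefficient of variation between libraries of a group was 0.301 without CsA_PI 2 and 0.349 with it. The direction of Slamf6 depended on the scale, since it was -0.14 with library totals in place of TMM and -0.29 on log2(TPM + 1). In TPM it stood at 175 ± 11.7 (SD, n = 3) unstimulated and 144 ± 22.7 stimulated.

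Of the CD28 family, Icos stood at 237, 243 and 250 CPM in ethanol_US and at 556, 432 and 536 CPM in ethanol_PI, with every stimulated library above every unstimulated one (log2 fold change 1.06 ± 0.18, edgeR adjusted p 0.000752). Cd28 stood at 376, 307 and 309 CPM and then at 256, 217 and 251 CPM. All 3 stimulated libraries were below all 3 unstimulated ones, but -0.45 ± 0.31 was not past the threshold with all 12 libraries (edgeR adjusted p 0.271). Without CsA_PI 2 Cd28 was called lower, at -0.51 ± 0.14 (edgeR adjusted p 0.0105). With library totals it was also called lower, at -1.07 (edgeR adjusted p 0.00524), a scaling that moves the median of all genes by -0.60 in this comparison and turns the calls of all genes to 1580 higher and 5437 lower.

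Among the adhesion receptors, Icam1 stood at 234, 268 and 215 CPM unstimulated and at 762, 1220 and 792 CPM stimulated (log2 fold change 1.95 ± 0.23, edgeR adjusted p 5.22e-05). Cd44 stood at 67.4, 104 and 57.9 CPM and then at 227, 342 and 223 CPM (1.79 ± 0.45, edgeR adjusted p 0.00827). For both genes the groups were apart, and the library numbered 2 was the highest of its group in both vehicle groups. With CsA, Icam1 was lowest in CsA_US 2 and CsA_PI 2 (202 and 273 CPM). Cd44 was highest in CsA_US 2 (84.4 CPM) and lowest in CsA_PI 2 (108 CPM). The libraries numbered 2 are those with the most B cell and myeloid marker RNA, and the part of these cells in the 2 receptors' levels was not tested. In the 8 libraries numbered 1 and 3 the rises were 1.74 ± 0.17 for Icam1 and 1.80 ± 0.15 for Cd44 (edgeR adjusted p 1.13e-05 and 3.52e-06).

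**Figure D2:**
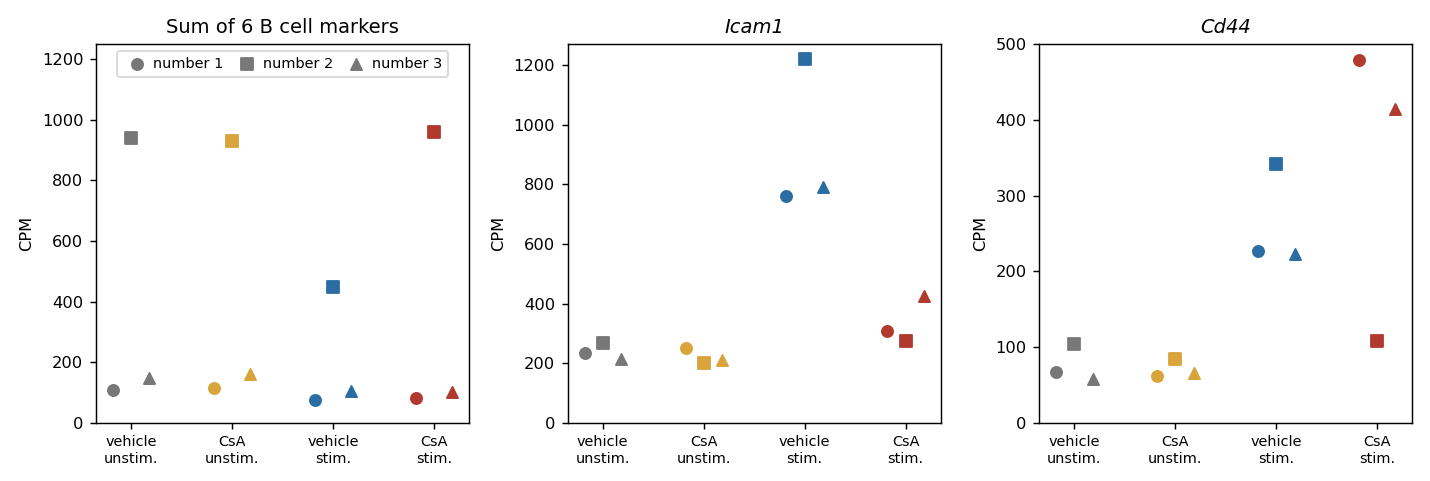
Summed CPM of 6 B cell markers (left), and CPM of Icam1 and Cd44, in each library by group, with the replicate number as the symbol. The squares, libraries numbered 2, are at 447 to 959 CPM of B cell markers, and Icam1 in ethanol_PI 2 was at 1220 CPM against 762 and 792 CPM in the other libraries of that group.

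Cd82 stood at 309, 290 and 360 CPM in ethanol_US and at 1888, 1484 and 1796 CPM in ethanol_PI (log2 fold change 2.43 ± 0.33, edgeR adjusted p 0.000122). Cd5, the negative regulator, stood at 230, 280 and 241 CPM and then at 1121, 855 and 1097 CPM (2.03 ± 0.28, edgeR adjusted p 0.000147). In both genes ethanol_PI 2 was the lowest stimulated library, and still well above every unstimulated one.

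The comparison named in the study's design is CsA against vehicle, and in stimulated cells CsA lowered 6 of the 8 genes and raised 1. Slamf1 was 21.7-fold lower with CsA, Icam1 2.76-fold, Slamf6 2.54-fold, Cd82 2.46-fold, Cd5 1.88-fold and Icos 1.59-fold, while Cd28 was 2.9-fold higher. These folds are from all 12 libraries. Without CsA_PI 2 the same 6 were lower and Cd44 joined Cd28 as higher. The log2 fold changes of Slamf1 (-4.68), Slamf6 (-2.18) and Cd28 (1.93) were then larger in size than with all 12 libraries. Those of Cd82 (-0.91), Cd5 (-0.57), Icos (-0.47) and Icam1 were smaller in size. Of all genes tested, 10.3% were higher and 12.7% lower by the test, 23.0% together, and without CsA_PI 2 these shares were 10.4%, 12.1% and 22.5%. The median log2 fold change of the members was -1.11, and -0.74 without that library, against 0.06 and 0.05 over all genes. Cd28, Slamf1 and Icam1 kept their call under all 21 alternative settings. The count of 7 fell to 4 without ethanol_PI 1 and without ethanol_PI 3, where Icos, Slamf6 and Cd5 lost theirs. Over all genes the calls fell too, from 3318 to 2233 and 2322.

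Slamf1 stood at 35.8, 63.0 and 40.9 CPM in CsA_PI 1 to 3. All 3 libraries were far below the vehicle-treated ones (log2 fold change -4.44 ± 0.25, edgeR adjusted p 1.42e-06), and the value was -4.68 ± 0.22 without CsA_PI 2. The 63.0 CPM of CsA_PI 2 was just above the 23.8 to 60.2 CPM of the unstimulated libraries. Slamf6 stood at 32.2, 131 and 43.4 CPM. Here the libraries of the group split, with CsA_PI 1 and 3 below every other library of the study and CsA_PI 2 among the unstimulated ones. The log2 fold change was -1.34 ± 0.39 (edgeR adjusted p 0.0289) and -2.18 ± 0.16 without CsA_PI 2 (edgeR adjusted p 2.38e-06). With 12 libraries the call was lost on leaving out any of 9 others, ethanol_US 1 or 3, CsA_US 2 or 3, ethanol_PI 1, 2 or 3, or CsA_PI 1 or 3 (edgeR adjusted p 0.0524 to 0.092). It was also lost with library totals (-0.90), without the filter (-1.24), with limma on log2(TPM + 1) (-1.17) and in a fit of the compared groups alone (-1.25).

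Cd28 stood at 895, 314 and 893 CPM in CsA_PI 1 to 3, against 217 to 256 CPM in the stimulated vehicle libraries. CsA_PI 1 and 3 were the highest of all 12 libraries. CsA_PI 2 was above all 3 stimulated vehicle libraries, but within the 274 to 376 CPM of the unstimulated libraries. The log2 fold change was 1.54 ± 0.32 (edgeR adjusted p 0.00386), and 1.93 ± 0.16 without CsA_PI 2 (edgeR adjusted p 3.86e-06). Icos stood at 383, 244 and 332 CPM, below all 3 vehicle-treated libraries, with CsA_PI 2 within the 182 to 250 CPM of the unstimulated libraries. Its fall of -0.67 ± 0.18 (edgeR adjusted p 0.0196) was -0.47 ± 0.16 without CsA_PI 2 (edgeR adjusted p 0.0486). It was no longer called without ethanol_PI 1 or ethanol_PI 3 (-0.60 and -0.63) or with library totals (-0.35), a scaling that moves the median of all genes by 0.34 and gives 2870 calls higher and 1193 lower over all genes.

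Cd44 stood at 479, 108 and 414 CPM with CsA, and its groups overlapped. CsA_PI 1 and 3 were above all 3 vehicle-treated libraries and CsA_PI 2 was below all 3, and the difference of 0.34 ± 0.44 was not called (edgeR adjusted p 0.643). Without CsA_PI 2 it was 0.80 ± 0.26 (edgeR adjusted p 0.0404). In the 8 libraries numbered 1 and 3 it was 1.03 ± 0.15 (edgeR adjusted p 0.000431), while without CsA_PI 1 it was -0.01. Icam1 stood at 308, 273 and 424 CPM, all below the vehicle-treated libraries (-1.47 ± 0.23, edgeR adjusted p 0.000684), at -1.30 ± 0.23 without CsA_PI 2 and -1.05 ± 0.17 in the 8 libraries. Its 273 CPM in CsA_PI 2 was just above the 202 to 268 CPM of the unstimulated libraries.

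Cd82 stood at 869, 311 and 920 CPM and Cd5 at 670, 288 and 672 CPM in CsA_PI 1 to 3. Both were below every vehicle-treated stimulated library in all 3, and CsA_PI 1 and 3 were at similar levels while CsA_PI 2 was close to the unstimulated libraries. The log2 fold change of Cd82 was -1.30 ± 0.32 (edgeR adjusted p 0.0104), and -0.91 ± 0.16 without CsA_PI 2 (edgeR adjusted p 0.00127). Cd5 fell by 0.91 ± 0.27 on the log2 scale (edgeR adjusted p 0.0293), and by 0.57 ± 0.16 without CsA_PI 2 (edgeR adjusted p 0.0232). The call of Cd5 was lost without CsA_US 3, ethanol_PI 1 or ethanol_PI 3, at -0.87, -0.85 and -0.86.

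**Figure D3:**
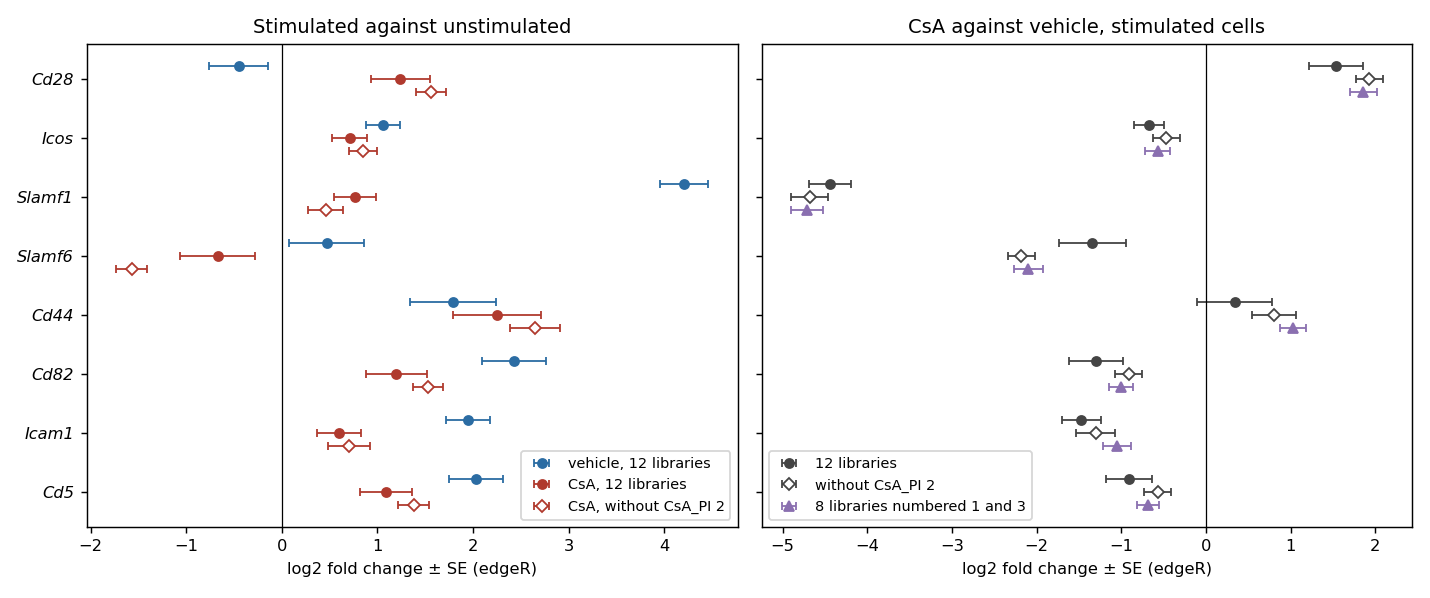
Log2 fold change with its SE for each gene. Left, stimulated against unstimulated cells in vehicle (blue) and with CsA from 12 libraries (red) and without CsA_PI 2 (open); right, CsA against vehicle in stimulated cells from 12 libraries, without CsA_PI 2, and from the 8 libraries numbered 1 and 3. Cd28 is at -0.45 in vehicle and 1.24 with CsA, and Slamf1 at 4.21 and 0.77.

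In unstimulated cells CsA moved none of the 8 genes past the threshold. Over all genes 1 was called, Gbp11, which is 0.00695% of those tested and lower (without CsA_PI 2, 0.0465% were called, 0.00664% higher and 0.0398% lower, and no member). At an unadjusted p under 0.05 edgeR gave 1 member, Slamf1, and 3.23% of all genes. Slamf1 stood at 24.4, 23.8 and 33.9 CPM with CsA, below all 3 vehicle libraries (49.9 to 60.2 CPM), at a log2 difference of -0.99 ± 0.22 (edgeR adjusted p 0.785). DESeq2 called 1 member, the same gene, with an adjusted p of 0.0406. Icos was at 182, 191 and 211 CPM and Slamf6 at 108, 110 and 111 CPM, both also without overlap, with log2 differences of -0.32 ± 0.18 and -0.20 ± 0.39. The other 5 overlapped between the groups, and the share of all genes without overlap was not counted. Cd28 was at 274 to 339, Cd44 at 61.3 to 84.4, Cd82 at 299 to 316, Icam1 at 202 to 250 and Cd5 at 245 to 269 CPM with CsA, and their log2 differences lay between -0.16 and 0.02.

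With CsA present, stimulation was followed by higher levels of Cd28, Icos, Cd44, Cd82 and Cd5, the 5 members called with all 12 libraries. The adjusted p-values were close to the threshold, from 0.0395 for Cd44 to 0.048 for Cd82, and 5.28% of all genes were called (3.90% higher, 1.38% lower). Without CsA_PI 2, 28.7% of all genes were called (14.1% higher, 14.6% lower), and so were 7 members, Icam1 now also higher and Slamf6 lower. The count of 5 fell to 0 on leaving out any one of ethanol_US 1, the 3 CsA_US, the 3 ethanol_PI, CsA_PI 1 and CsA_PI 3, and to 1 without ethanol_US 2 or ethanol_US 3. The calls over all genes fell as well. From 760 they went to between 0 and 6 where no member was called, and to 639 and 268 without ethanol_US 2 and ethanol_US 3. When replicate numbers were blocked, Icos, Cd82 and Cd5 were not called (edgeR adjusted p 0.0513, 0.0529 and 0.0541), which left 2 members and 3.06% of all genes. At an unadjusted p under 0.05 there were 7 members and 25.7% of all genes with 12 libraries.

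From the 11 libraries without CsA_PI 2, the rise with CsA was 2.65 ± 0.26 on the log2 scale for Cd44, 1.56 ± 0.16 for Cd28, 1.53 ± 0.16 for Cd82 and 1.38 ± 0.16 for Cd5 (edgeR adjusted p 1.48e-05, 1.48e-05, 1.67e-05 and 3.91e-05). With all 12 it was 2.25 ± 0.46, 1.24 ± 0.31, 1.20 ± 0.32 and 1.09 ± 0.27. Icos was at 0.85 ± 0.15 from the 11 libraries (edgeR adjusted p 0.00112) and 0.71 ± 0.18 from the 12, and Icam1 at 0.70 ± 0.22 (edgeR adjusted p 0.03) and 0.60 ± 0.23 (edgeR adjusted p 0.12). Slamf6 went the other way, at -1.57 ± 0.16 without CsA_PI 2 (edgeR adjusted p 1.4e-05) and -0.67 ± 0.39 with it (edgeR adjusted p 0.303). Slamf1 missed the threshold in both, at 0.46 ± 0.18 and 0.77 ± 0.22 (edgeR adjusted p 0.0741 and 0.0601).

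Whether the response to stimulation differed with CsA was tested as an interaction, the stimulation effect with CsA minus that in vehicle. It was called for Slamf1 and Icam1, whose response was smaller with CsA, and for Cd28, whose response was higher, 3 members against 9.72% of all genes (3.54% higher, 6.19% lower). The difference was -3.44 ± 0.32 for Slamf1, 1.70 ± 0.44 for Cd28 and -1.35 ± 0.32 for Icam1 on the log2 scale (edgeR adjusted p 0.000147, 0.0299 and 0.0202). Without CsA_PI 2 Slamf6 (-1.98 ± 0.20) and Cd82 (-0.85 ± 0.21) were called as well, beside Slamf1 at -3.69 ± 0.25, Cd28 at 2.08 ± 0.21 and Icam1 at -1.19 ± 0.30, when 12.4% of all genes were called (5.08% higher, 7.31% lower).

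The 3 remaining members were not called in that interaction with either set, and from the 11 libraries they stood at -0.60 ± 0.22 for Cd5, 0.92 ± 0.35 for Cd44 and -0.15 ± 0.21 for Icos (edgeR adjusted p 0.0999, 0.113 and 0.726). In the 8 libraries numbered 1 and 3 all members but Icos were called, with Cd44 at 0.98 ± 0.21, where 12.5% of all genes were called. With 12 libraries only Slamf1 stayed called without ethanol_US 1, CsA_US 3 or ethanol_PI 2. Over all genes there were then 787, 795 and 934 calls, against 1400 with all 12 libraries. Cd28 also lost its call without CsA_US 2, ethanol_PI 1 or 3, or CsA_PI 1 or 3 (1.48 to 1.73), and Icam1 without ethanol_US 3 (-1.24). With limma on log2(TPM + 1) Icam1 was at -0.95 and not called. With library totals Icam1 was at -1.01 and not called, and over all genes 950 calls were higher and 531 lower, against 509 and 891 with TMM scaling.

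Per length, in TPM, Cd82 led the 8 genes in every group. In ethanol_US it was at 337 ± 33 (SD, n = 3), followed by Icos at 206 ± 3.35, Cd5 at 202 ± 15.9, Slamf6 at 175 ± 11.7, Icam1 at 154 ± 14.5 and Cd28 at 125 ± 19.1, with Cd44 at 33.5 ± 13.8 and Slamf1 at 31.8 ± 2.38 last. The neighbours Icos and Cd5, Icam1 and Cd28, and Cd44 and Slamf1 overlapped in their libraries. In ethanol_PI the order was Cd82 at 1227 ± 83.1, Cd5 at 552 ± 63.6, Icam1 at 402 ± 130, Slamf1 at 396 ± 13.4, Icos at 295 ± 29.7, Slamf6 at 144 ± 22.7, Cd44 at 94.3 ± 28.2 and Cd28 at 60 ± 3.17. Cd5 overlapped Icam1, Icam1 overlapped Slamf1, and Slamf6 overlapped Cd44. Slamf1 had thus moved from the last place to the fourth and Cd28 from the sixth to the last.

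In CsA_US the order began with Cd82 at 297 ± 21.5 TPM and Cd5 at 192 ± 1.78 TPM and ended with Cd44 at 25.1 ± 3.04 TPM and Slamf1 at 14.9 ± 3.4 TPM. In CsA_PI 1 and 3 Cd82 was at 651 and 771 TPM, Cd5 at 374 and 431 TPM and Cd28 at 240 and 273 TPM, the third place. Slamf6 at 27.9 and 45.8 TPM and Slamf1 at 14.2 and 18.6 TPM came last. CsA_PI 2 had Cd82 at 318, Cd5 at 231, Icos at 220, Slamf6 at 193, Icam1 at 175, Cd28 at 119, Cd44 at 53.2 and Slamf1 at 37 TPM.

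The transcripts within a gene were described where they held at least 10% of its TPM in the mean of a group. These are kallisto's estimates from reads that several transcripts share, and they were not tested. Icam1 and Cd5 had 1 transcript each, Cd28-201 held 93.9% of the Cd28 TPM in ethanol_US, and Slamf1-201 held 95.2% of that of Slamf1. Of Icos, Icos-201 held 51.8% of the TPM in ethanol_US and 53.7% in ethanol_PI, and the longer Icos-202 the remainder. Shares of the estimated counts, which are not scaled for length, were different, and Icos-201 held 17.7% and 18.8% of these. Of Cd82, Cd82-202, Cd82-201 and Cd82-205 held 33.4%, 26.9% and 29.6% in ethanol_US and 28.1%, 25.8% and 34.2% in ethanol_PI.

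For Cd44, whose messenger RNA is spliced with a variable number of exons, the long Cd44-207 (14 exons, 5045 bases) held 46.7%, 30.3% and 62.3% of the TPM in ethanol_US 1 to 3 and 25.8%, 26.9% and 29.8% in ethanol_PI. The short Cd44-206 (10 exons, 1305 bases) held 13.6%, 16.2% and 6.11% and then 32.1%, 27.4% and 29.6%. The shares were spread widely in the unstimulated libraries, where the gene is low, and closely in the stimulated ones. Of the estimated counts Cd44-207 held a mean of 62.4% in ethanol_US and 46.7% in ethanol_PI, and Cd44-206 3.88% and 11.5%. With CsA and stimulation Cd44-206 held 19.5%, 20.4% and 28.8%, and Cd44-203 (9 exons, 2848 bases) held 44.5%, 47.4% and 40.4%.

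For Slamf6, Slamf6-201 (8 exons, 2485 bases) held 13%, 15% and 13.9% of the TPM in ethanol_US and 31%, 28.2% and 29.9% in ethanol_PI, so the groups did not overlap. The shorter Slamf6-204 (7 exons, 984 bases) held 52.4%, 50.4% and 52.2% and then 41.3%, 44% and 36%. Of the estimated counts Slamf6-201 held a mean of 29.4% in ethanol_US and 55.2% in ethanol_PI, and Slamf6-204 37.2% and 25.7%. The long Slamf6-207, below 10% of the TPM, held 22.1% and 10.4% of the counts. With stimulation the TMM-scaled CPM of Slamf6 were higher, a difference not past the threshold with 12 libraries, and its summed TPM were lower. TPM are not TMM-scaled, and with library totals in place of TMM the log2 difference of the counts was also negative (-0.14). The part of the transcript shares in this contrast was not tested. In CsA_PI 1 to 3 Slamf6-201 held 20.3%, 14.3% and 18.2%.

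**Figure D4:**
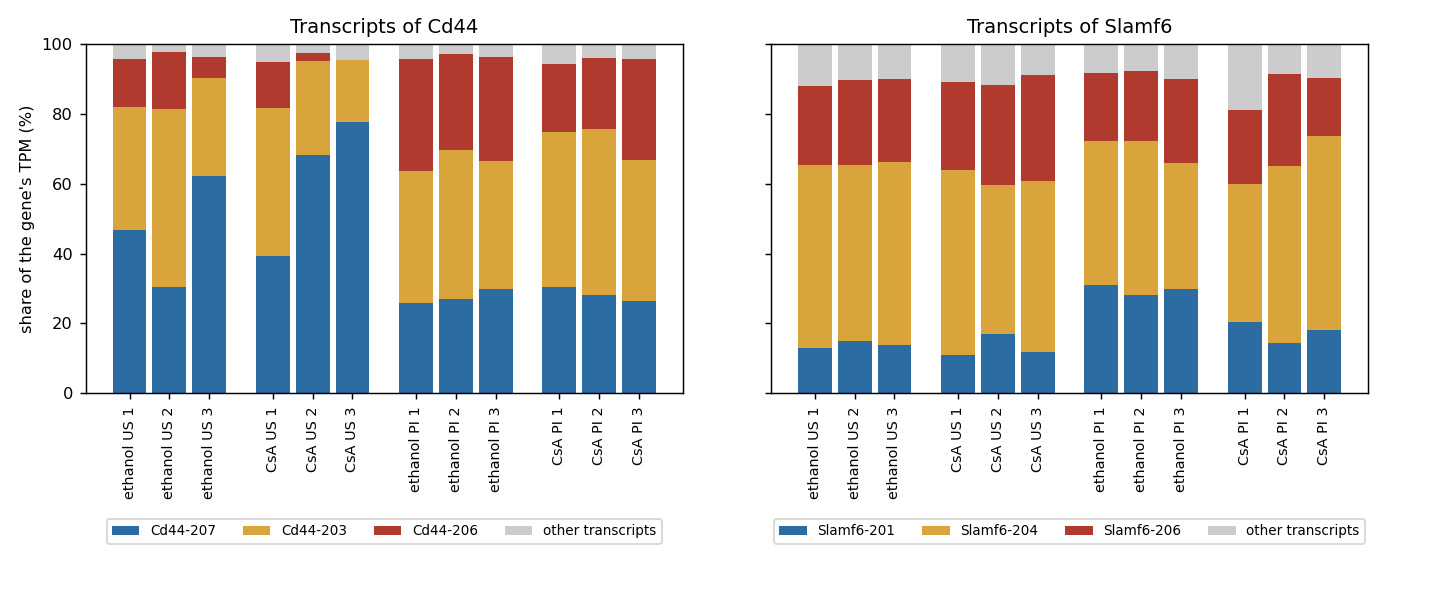
Share of the summed TPM (%) held by each described transcript of Cd44 (left) and Slamf6 (right) in the 12 libraries, with all other transcripts in grey. Cd44-206 held 27.4% to 32.1% in the stimulated vehicle libraries against 6.11% to 16.2% in the unstimulated ones, and Slamf6-201 held 28.2% to 31% against 13% to 15%.

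Genes that work with these receptors were followed in 7 lists of 70 symbols, of which 66 passed the filter. Of all genes tested, 39.8% were called with stimulation in vehicle (20.1% higher, 19.7% lower). For CsA in stimulated cells 23.0% were called (10.3% higher, 12.7% lower). No list was tested as a set. In the list of the SLAM family and its adaptors, stimulation in vehicle raised 4 of 8 genes and lowered 1, and CsA in stimulated cells lowered 4 and raised none. Slamf7, another SLAM receptor, rose by 4.34 ± 0.32 on the log2 scale and was -3.42 ± 0.31 with CsA. Cd84, which lies between Slamf1 and Slamf6, rose by 1.43 ± 0.22 and was -1.87 ± 0.22 with CsA, and the kinase Fyn rose by 1.30 ± 0.31 and was -1.65 ± 0.31. Cd244a, the fourth, rose by 2.32 ± 0.60 and was -2.14 ± 0.60, and the gene that fell with stimulation was Sh2d1a, which codes for SAP, by 0.93 ± 0.19 (edgeR adjusted p 0.0213 or less for all of these). The difference in Fyn with stimulation was 0.68 with library totals and 1.16 ± 0.40 in the 8 libraries numbered 1 and 3 (edgeR adjusted p 0.0871 and 0.0546), not called in either. The list's median was 1.36 with stimulation and -1.06 with CsA. Without CsA_PI 2 the counts were 4 higher and 2 lower, and 0 higher and 5 lower.

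Of 11 other co-receptors of the T cell surface, stimulation raised 6 and lowered 1, and CsA in stimulated cells lowered 3 and raised none (1 raised without CsA_PI 2). Crtam, an adhesion molecule of activated T cells, rose by 6.61 ± 0.85 and was -2.92 ± 0.70 with CsA. Cd200 rose by 2.90 ± 0.22 and was -3.03 ± 0.22, and Tnfrsf4, which codes for OX40, rose by 1.99 ± 0.36 and was -1.68 ± 0.36 (edgeR adjusted p 0.0131 or less for all). In the 8 libraries numbered 1 and 3 the CsA difference of Tnfrsf4 was -1.47 and not called, nor was that of Crtam with no filter (-2.87). The one that fell was Cd47, by 0.89 ± 0.26.

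Of 10 genes of CD28 and ICOS signalling, stimulation raised 1 and lowered 3, and CsA in stimulated cells raised 4 and lowered 2. The share of this list called with stimulation was close to the 39.8% of all genes. The one that rose was Ctla4, the inhibitory receptor between Cd28 and Icos on chromosome 1. It stood at 98.8, 124 and 106 CPM in ethanol_US, 407, 491 and 488 CPM in ethanol_PI, and 125, 135 and 123 CPM in CsA_PI (log2 fold change 2.08 ± 0.16 with stimulation and -1.85 ± 0.16 with CsA, edgeR adjusted p 3.64e-06 and 1.14e-05). The 6 unstimulated libraries ranged from 82.2 to 124 CPM. The 2 lower with CsA were Ctla4 and Prkcq. Pik3r1, the regulatory subunit of phosphoinositide 3-kinase, fell by 1.69 ± 0.25 with stimulation. With CsA Grap2, an adaptor that binds CD28, was 1.87 ± 0.33 higher in stimulated cells. Without CsA_PI 2 the counts were 2 higher and 4 lower with stimulation and 5 and 2 with CsA.

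Of 17 integrins, selectins and their regulators, stimulation raised 1, Itgav, and lowered 9, and CsA in stimulated cells raised 7 and lowered 1 (2 and 10, and 7 and 2, without CsA_PI 2). Itga6 fell by 2.53 ± 0.41, the adaptor Fyb by 1.65 ± 0.19 and Itga4 by 1.64 ± 0.21 on the log2 scale with stimulation. With CsA Cytip, which binds the integrin regulator cytohesin, was 2.20 ± 0.22 and Fyb 1.44 ± 0.19 higher in stimulated cells. Rassf5, an activator of LFA-1, the partner of ICAM1, was -1.55 ± 0.43 with CsA (edgeR adjusted p 0.0229), at 73.6, 298 and 105 CPM in CsA_PI against 383 to 514 CPM in ethanol_PI. Its call was lost without ethanol_PI 1, ethanol_PI 3 or CsA_PI 3, and without CsA_PI 2 it was -2.34.

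Of the 4 tested CD44 linkers to the cytoskeleton (a list of 5), 1 was called in each comparison, Rdx. It rose by 0.38 ± 0.14 with stimulation (edgeR adjusted p 0.0483), a call lost on leaving out any of the 12 libraries (0.30 to 0.44), and it turned to -0.22 with library totals. With CsA it was -0.66 ± 0.14 (edgeR adjusted p 0.00572), and -0.32 and not called with library totals. Of 11 tetraspanins beside Cd82, stimulation raised 1 (Cd53) and lowered 4 (Cd151, Tspan13, Tspan14 and Tspan32), and CsA in stimulated cells raised 2, Cd151 and Tspan13, and lowered none (2 and 2 without CsA_PI 2). The shares of tetraspanins called with 12 libraries were close to those of all genes, 39.8% and 23.0%. Tspan32 fell by 2.01 ± 0.37, Cd151 by 1.64 ± 0.36 and Tspan13 by 0.88 ± 0.18 with stimulation. With CsA Cd151 was 1.20 ± 0.36 higher, and 0.71 and not called without CsA_PI 2. Leaving out ethanol_PI 1, 2 or 3 also ended the call of Cd151 and of Tspan13 (0.59 ± 0.18 with 12 libraries), and leaving out CsA_PI 3 ended that of Tspan13.

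Of the members' ligands, 5 of 8 were tested, and 1 rose with stimulation, Spp1, a CD44 ligand (3.73 ± 1.04, edgeR adjusted p 0.016). It stood at 6.32, 72.2 and 14.7 CPM in ethanol_PI, and without ethanol_PI 2 the value was 2.15 and not called, as it was without ethanol_US 1 (3.27) or ethanol_US 3 (3.46). When replicate numbers were blocked, the list had 4 calls for stimulation and 2 for CsA in stimulated cells, against 1 and 0, and 41.9% and 24.5% of all genes were called. The added genes, chosen after their values were seen, were Cd86 (1.28 ± 0.28 with stimulation, -0.96 ± 0.28 with CsA), Cd72 (1.07 ± 0.23 and -0.95 ± 0.23) and Icosl (-1.38 ± 0.34 with stimulation). Cd86 at 168 CPM and Cd72 at 161 CPM were highest in ethanol_PI 2, which held 447 CPM of B cell markers, and were at 28.5 to 37.4 and 29 to 42.4 CPM in the other libraries of that group. The part of B cells in these ligand levels was not tested.

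**Figure D5:**
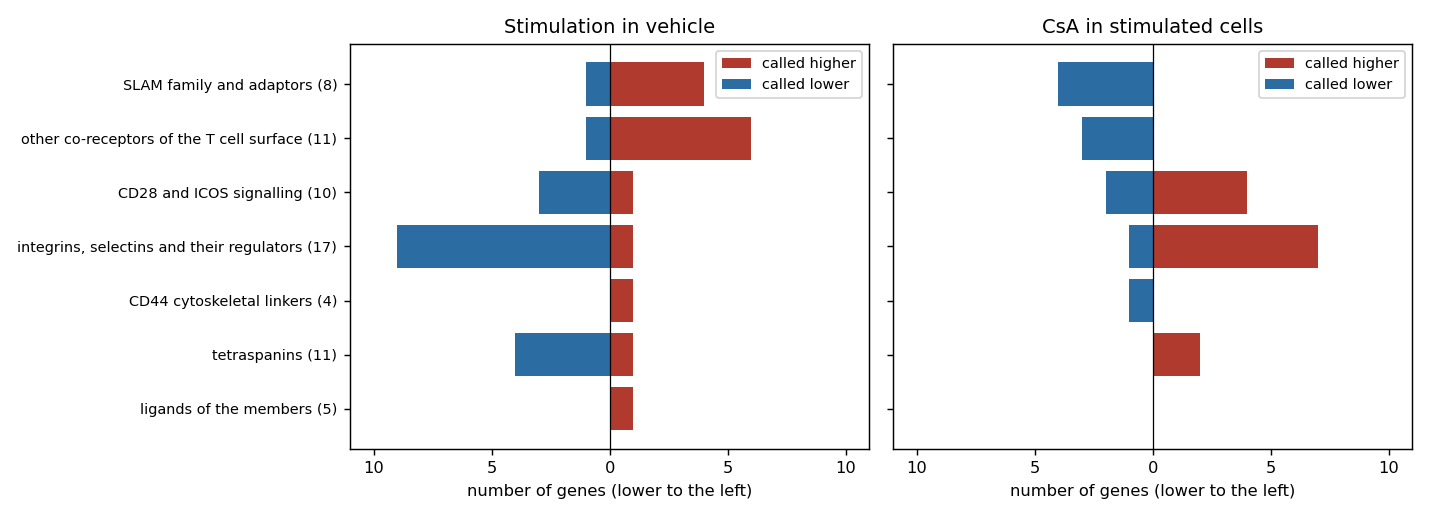
Number of genes called higher (red, to the right) and lower (blue, to the left) in each of 7 lists, with the number tested in brackets, for stimulation in vehicle and for CsA in stimulated cells (edgeR, adjusted p under 0.05). The SLAM list has 4 higher and 1 lower with stimulation and 4 lower with CsA, and the integrin list 1 higher and 9 lower, then 7 higher and 1 lower. Of all genes 39.8% were called with stimulation and 23.0% with CsA. Both comparisons use the ethanol_PI libraries.

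The genes whose pattern was most like that of each member were taken by the smallest root mean square difference of centred log2 CPM over the 12 libraries, among 8020 other genes that averaged at least 10 CPM. For Slamf1 they were Slc41a1 (0.33) and Nr4a2 (0.35), for Slamf6 Glmn (0.20) and Tspan3 (0.22), for Cd28 Tnfrsf22 (0.16) and Epas1 (0.17), and for Icos Rbmx and Rbm27 (0.12 each). For Cd44 they were Actg1 (0.20), a cytoplasmic actin, and Acsl3 (0.23), for Icam1 Morc2a (0.17) and Sept11 (0.18), for Cd82 Eif4a-ps4 (0.12) and Ddx56 (0.15), and for Cd5 Hsp90aa1 (0.13) and Fnbp1 (0.14). Eif4a-ps4 is a processed copy of a family with near-identical members, so its count is uncertain. Actg1 stood at 873 to 1771 CPM in the 6 unstimulated libraries, 4605 to 5174 CPM in ethanol_PI and 9608, 1930 and 8959 CPM in CsA_PI. As with Cd44, CsA_PI 1 and 3 were the highest libraries.

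Between members, the pair closest in pattern was Cd82 and Cd5, with a difference of 0.24 on the same measure, and the farthest was Cd28 and Slamf1, with 2.42. The neighbours Slamf1 and Slamf6 differed by 1.74 and Cd28 and Icos by 0.83. These distances describe the 12 libraries, CsA_PI 2 included.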

How the data were processed

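The submitters' processing notes name cutadapt, kallisto and the build mm10; versions and annotation are not given in the sources used here. The deposited tables hold, per transcript, an estimated count, TPM, and the lengths (nominal and effective, in bases), per the file headers. Transcripts were joined to genes by GENCODE release M21 identifiers (108214 of 109617; the 1403 others carried 0.494% to 0.628% of a library's counts), and summed estimated counts were rounded. A count of 0 allows up to 0.162 to 0.285 CPM (3 counts), for counting error only.

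All 12 libraries entered 1 quasi-likelihood fit (edgeR 4.0.16, R 4.3.3) with TMM scaling and the edgeR filter (minimum count 10, minimum total 15). The threshold was 0.05 on p-values adjusted by Benjamini-Hochberg over all genes tested; the SE is the log2 fold change over the square root of F. Levels are TMM-scaled CPM. The fit was tested on simulated counts. Alternatives were RLE scaling, library totals, no filter, DESeq2 1.42.0, limma 3.58.1 on log2(TPM + 1), a replicate block, the compared groups alone, and leaving out each library; those with the 8 libraries numbered 1 and 3, and with the block without CsA_PI 2, were chosen after seeing the data. The members, partner lists and markers were chosen with earlier results of these data known. Named were the members, up to 3 called genes of largest change per list that averaged at least 10 CPM, further genes a count needed, and 2 genes of most like pattern per member; not every gene so named is reported here.

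Equally numbered libraries deviated together from their group means across genes. The r was 0.143 to 0.319 between the vehicle groups, 0.196 to 0.325 unstimulated, 0.107 to 0.208 stimulated, and 0.033 to 0.123 between the CsA groups. The numbers were read as pairs in the first 3, but the main fit used group means only. Its SEs and p-values therefore leave the pairs out, and only the replicate block, an alternative, uses them. The labels do not say what a number shares.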

Additional observations from a re-analysis of the deposited data

Results flagged for a closer look

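In 3 members the effect of stimulation differed between CsA-treated and vehicle-treated cells by a test of the difference itself, on the log2 scale. It was 1.70 for Cd28 (edgeR adjusted p 0.0299), -3.44 for Slamf1 (edgeR adjusted p 0.000147) and -1.35 for Icam1 (edgeR adjusted p 0.0202), with 2.08, -3.69 and -1.19 when CsA_PI 2 was left out. The call for Cd28 was lost without any one of ethanol_US 1, CsA_US 2, CsA_US 3, the 3 ethanol_PI, CsA_PI 1 and CsA_PI 3 (1.48 to 1.73, edgeR adjusted p 0.0545 to 0.0734). The call for Icam1 was lost without ethanol_US 1, ethanol_US 3, CsA_US 3 or ethanol_PI 2 (-1.34 to -1.09, edgeR adjusted p 0.0523 to 0.0637). Cd28 stood at 307 to 376 CPM in ethanol_US and 217 to 256 CPM in ethanol_PI, a difference that was not called with 12 libraries (-0.45 ± 0.31, edgeR adjusted p 0.271). It stood at 274 to 339 CPM in CsA_US, 895 and 893 CPM in CsA_PI 1 and 3, and 314 CPM in CsA_PI 2.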

How the results depend on the processing

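Of 832 values of the 8 members under alternative settings, 677 kept their direction and side of the threshold, 111 lost the call, 32 gained it and 12 changed sign. Of 672 values of named partner genes 46 lost the call and 2 changed sign, and of 728 counts of called genes per list 153 moved by over 1.5 times. The count of members called for CsA in stimulated cells was 7, and 3 in a fit of the compared groups alone (Cd28, Slamf1 and Icam1). Over all genes these calls numbered 3318 and 2383. In unstimulated cells the count of members was 0, and 1 with DESeq2 and with the replicate block without CsA_PI 2. For stimulation with CsA it was 5, and 0 with library totals, 3 without the filter, 0 with limma, 2 with the replicate block and 0 with the compared groups alone. With the block Icos, Cd82 and Cd5 were the 3 not called there (0.70, 1.11 and 1.05, edgeR adjusted p 0.0513, 0.0529 and 0.0541). For the interaction it was 3, and 7 in the 8 libraries numbered 1 and 3 and 6 with the block without CsA_PI 2. Leaving out 1 library gave 4 to 8 for CsA in stimulated cells, 0 to 7 for stimulation with CsA and 1 to 5 for the interaction. For CsA in stimulated cells it gave 2233 to 3393 calls over all genes. The replicate block changed no member call for stimulation in vehicle or for CsA in either state; with it Cd82 was called in the interaction (-1.32).

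Values that changed sign were those of genes not called, apart from Rdx with stimulation (-0.22 with library totals, -0.21 with limma). They were Slamf6 with stimulation (-0.14 with library totals, -0.29 with limma), Cd44 with CsA in stimulated cells (-0.01 without CsA_PI 1), and Icos in the interaction (0.15 with limma). For CsA in unstimulated cells they were Cd44 (0.17 without ethanol_US 2, 0.05 in the 8 libraries), Cd82 (0.03 without ethanol_US 3), Icam1 (0.07 in the 8 libraries) and Cd5 (-0.07 with limma, -0.04, -0.00 and -0.00 without ethanol_US 1, ethanol_US 3 and CsA_US 2). Over all genes, calls for stimulation with CsA numbered 760, and 2022 with DESeq2, 5 with library totals, 30 with limma, 441 with the block, 0 with the compared groups alone, 4437 in the 8 libraries, 4831 with the block without CsA_PI 2, and 0 to 4321 on leaving out 1 library. In unstimulated cells they numbered 1, and 20 with DESeq2, 0 with limma and in the 8 libraries, 15 with the block without CsA_PI 2, and 0 to 7 on leaving out 1 library. In the interaction they numbered 1400, and 2120 with DESeq2, 2274 with the block without CsA_PI 2, and 787 to 1865 on leaving out 1 library. Where leaving out 1 library changed the sign, the values ran from -0.01 to 0.80 for Cd44 with CsA in stimulated cells, and in unstimulated cells from -0.13 to 0.03 for Cd82 and from -0.04 to 0.11 for Cd5. The cause of these changes was not tested, beyond the libraries left out.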
